A study of Rattus norvegicus with 9 samples.

Results

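Solute carriers are membrane proteins that move sugars, amino acids, ions, metabolites and vitamins across the cell surface or the membranes of organelles, and this report describes their transcripts in rat dorsal root ganglia. Members were the genes whose single annotated symbol is Slc followed directly by a digit, without the glucose transporters Slc2a1 and Slc2a3. The rule found 278 probe sets (groups of short probes for 1 transcript) of 226 genes, among 10411 genes with a single symbol. Of these genes, 39 had more than 1 probe set, and the probe set with the highest mean over the 9 arrays stood for the gene. Another 2 carrier probe sets have several symbols and were left out. Slc4a1ap, an adaptor protein of a carrier, and Slc7a6os, a gene on the strand opposite Slc7a6, match the rule by name and are not carriers themselves.

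The ganglia came from Sprague-Dawley rats and were pooled lumbar dorsal root ganglia, which hold the cell bodies of sensory neurons with their glia. The 3 groups were normal rats on vehicle, rats made diabetic with streptozotocin (STZ, a toxin of pancreatic beta cells) on vehicle, and STZ rats on FK1706, a compound that binds immunophilins. FK1706 was given to diabetic rats only, and its dose and the rats' age are not given in the sources used here. Each group has 3 arrays, taken after 1, 2 and 3 weeks of dosing, and each array holds RNA of 5 rats. A p-value of a group or week comparison thus measures the spread of pools left after group and week are fitted. That spread includes any group difference that varies by week, and the spread between single rats is not measured.

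Carriers are classed into families by sequence, and a family often shares a type of cargo. Facilitative carriers let a solute follow its gradient, while coupled carriers use the sodium, proton or chloride gradient to concentrate it, and the mitochondrial family exchanges metabolites between cytosol and matrix. In a sensory ganglion, vesicular carriers load transmitter in neurons, chloride and bicarbonate carriers set the ionic milieu, and glutamate, lactate and amino acid carriers serve satellite glia and Schwann cells as well as neurons.

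The members fell into 33 amino acid carriers, 12 carriers of glucose and other sugars, 39 of inorganic ions, 24 of metal ions and 30 mitochondrial carriers. The rest were 17 of neurotransmitters, osmolytes or vesicles, 18 of nucleotide sugars and nucleosides, 11 of lipids and bile acids, 9 of monocarboxylates and other organic acids, and 33 others. Classes followed the family number, or the gene in mixed families, and not the known cargo or place of each product. Every Slc25 gene thus counted as mitochondrial, Slc7a6os as an amino acid carrier and Slc4a1ap as an inorganic ion carrier. Of the 226 genes, 129 had a mean signal of at least 149 units (the 40th percentile of probe sets) and were tested. These were 18 amino acid, 6 glucose and sugar, 19 inorganic ion, 17 metal ion and 22 mitochondrial carriers, with 47 in the other classes. The other 97 members are low on this array, and no statement on them is made except where one is named.

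Levels are log2 signals after quantile normalization, and a difference of 0.58 on that scale is 1.5-fold. On the deposited scale the trimmed mean signal per array lay between 360 and 532 units and was lowest in week 3. The median log2 difference of all genes tested on that scale was -0.10 for STZ vehicle against normal vehicle, -0.07 for FK1706 against STZ vehicle and -0.17 for FK1706 against normal, and -0.43 for week 3 against week 1. Differences given here are relative to those shifts. Neuron markers were present (9 of 9 tested) and had a median difference of -0.01 between STZ vehicle and normal rats. Fibroblast markers had -0.53 there, with 2 of 5 passing the test as lower and summed signals of 25100 to 39700 in normal, 17940 to 28710 in STZ vehicle and 18430 to 27680 in FK1706 pools. In that list the collagens Col1a1, Col1a2 and Col3a1 were lower in STZ vehicle than normal pools in every week, while Dcn and Lum changed direction between weeks. Cartilage and bone markers had -0.94 (3 of 5 tested, 1 passing as lower). Their summed signals were 1028 to 1840 in normal, 535 to 794 in STZ vehicle and 537 to 888 in FK1706 pools. Neutrophil and mast cell markers had -0.68 (4 of 5 tested, 0 passing), with 2077 to 2452, 931 to 1818 and 1464 to 2331 in the same order. Of these, S100a9 and Np4 were lower in STZ vehicle than normal pools in every week, while S100a8 and Tpsb2 were not. For FK1706 against STZ vehicle the fibroblast, cartilage and neutrophil lists had 0.08, 0.36 and 0.46, and 0 of their markers passed. Their part in any carrier value was not tested. Skeletal muscle markers, all 8 tested, had a median of -0.44 between STZ vehicle and normal rats, but the direction turned between weeks. Their mean level was 8.11, 9.57 and 8.6 in normal and 8.45, 7.8 and 8.82 in STZ vehicle pools of weeks 1, 2 and 3, so it was lower in STZ vehicle rats in week 2 only. The summed signals of these markers were 3572 to 7413 in normal, 2319 to 4134 in STZ vehicle and 2011 to 3824 in FK1706 pools. In pooled tissue, fewer cells of a type and less RNA per cell cannot be told apart.

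Setting STZ vehicle against normal vehicle asks which carriers differ in the ganglia of diabetic rats. With limma and Benjamini-Hochberg adjustment over 6995 genes, 0 of 129 carriers passed at an adjusted p under 0.05, while 0.0858% of all genes tested did (0.0143% higher and 0.0715% lower). The smallest adjusted p of a carrier was 0.435. At an unadjusted p under 0.05, 9 carriers were higher and 2 lower, or 8.53%, and the share of all genes was 8.66% (3.93% higher and 4.73% lower). The median carrier difference was 0.02, against 0.00 for all genes. For 113 of the 129 carriers, or 87.6%, the 95% interval of the difference lay inside 1.5-fold in either direction, beside 89.6% of all genes. These intervals are not adjusted for the number of genes and hold for the normalized scale only. By the spread of the pools alone, 9 carriers were higher in every STZ vehicle pool than in any normal pool and 8 lower, or 13.2%, beside 12.7% of all genes (5.75% higher and 6.96% lower). None of the 129 was at least 1.5-fold apart in each of the 3 weeks, beside 0.0858% of all genes.

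**Figure D1:**
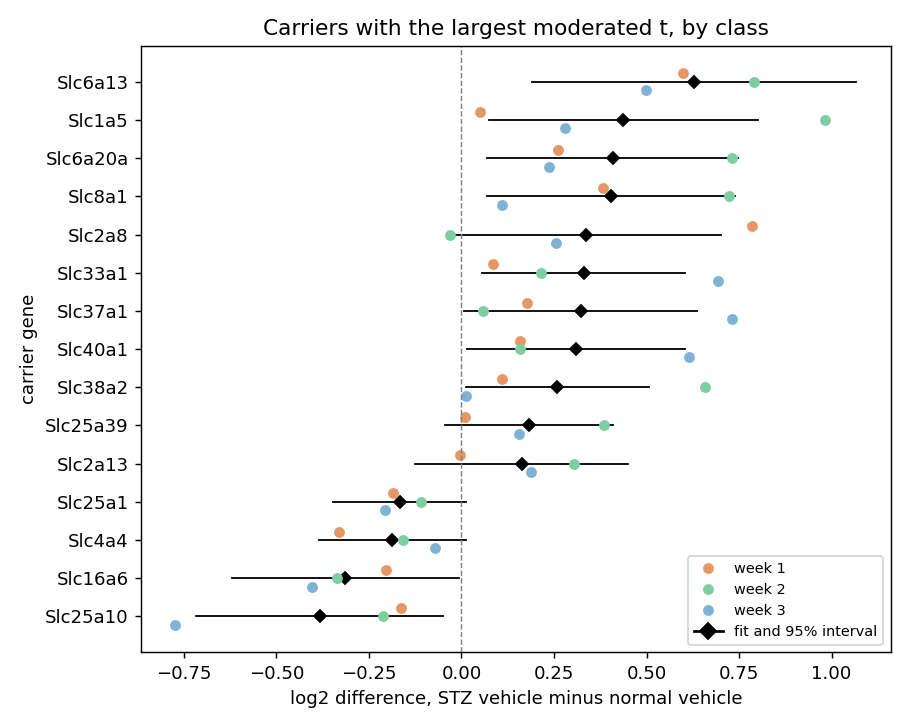
Log2 difference of STZ vehicle minus normal vehicle for the 3 carriers with the largest moderated t in each of the glucose, amino acid, ion and mitochondrial classes and in the rest. Coloured points are the weeks, black diamonds the fit, and bars its 95% interval. None passed after adjustment, and Slc6a13 has the largest fitted difference, 0.63.

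Slc6a13, which encodes the GABA and taurine transporter GAT2, had the largest difference of any tested carrier. Its level was 7.62, 7.58 and 8.08 in the normal pools of weeks 1, 2 and 3, and 8.22, 8.37 and 8.58 in the STZ vehicle pools. Every STZ vehicle pool was thus above every normal pool, and the means were 7.76 ± 0.279 and 8.39 ± 0.182 (SD, n = 3). The difference was 0.63 (SE 0.199, limma adjusted p = 0.435), or 1.55-fold. It ran from 0.48 to 0.79 when arrays or weeks were left out.

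Among the 18 tested amino acid carriers the median difference was 0.01, with 9 above 0 and 9 below. Slc1a5, which encodes the glutamine and neutral amino acid exchanger ASCT2, was at 7.73, 7.57 and 7.91 in normal and 7.78, 8.55 and 8.19 in STZ vehicle pools, so that the week 1 STZ vehicle pool lay below the week 3 normal pool and the groups overlapped. Its difference was 0.44 (SE 0.165, adjusted p = 0.482), and 0.16 without week 2. Slc38a2, which encodes the glutamine and alanine carrier SNAT2, was at 10.70, 10.29 and 10.67 in normal and 10.81, 10.95 and 10.69 in STZ vehicle pools. Its difference of 0.26 (SE 0.112, adjusted p = 0.551) came mostly from week 2, at 0.66, and was 0.06 without that week. Slc6a20a, for a transporter of proline, was at 9.0, 8.96 and 9.14 against 9.26, 9.69 and 9.38, with no overlap. It had 0.41 (SE 0.154, adjusted p = 0.482), but its second probe set gave 0.005, and it had 0.18 without the week 2 STZ vehicle pool.

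Other amino acid carriers lay close to 0 or varied between weeks. Slc3a2, the CD98 heavy chain that brings light chains such as Slc7a5 to the cell surface, had 0.08 (95% interval -0.06 to 0.23), and -0.02 on the deposited scale. Slc7a5, for the large neutral amino acid carrier LAT1, had 0.06 (-0.18 to 0.30), and -0.05 on the deposited scale. The glial glutamate transporter gene Slc1a3 had -0.18, with 0.24, -0.06 and -0.73 in weeks 1, 2 and 3. Its other probe sets gave 0.25 and -0.25, so that no direction can be read for it.

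Glucose and sugar carriers had a median of 0.08 over 6 tested genes, 3 above 0 and 3 below, and 0 passed. Slc37a1, which exchanges glucose 6-phosphate for phosphate at the endoplasmic reticulum and overlaps the gene Rsph1 in the GRCr8 gene table, had 0.32 (SE 0.143, adjusted p = 0.560). Its weekly differences of 0.18, 0.06 and 0.73 were largest in week 3, and it had 0.12 without that week. Slc2a8, for the intracellular glucose transporter GLUT8, had 0.34 (SE 0.165, adjusted p = 0.580), with 0.79, -0.03 and 0.25 by week, and 0.11 without week 1. Slc2a13, which takes up myo-inositol with protons, had 0.16 (SE 0.131), and its second probe set -0.01. Slc2a4, the insulin-responsive GLUT4, and the fructose transporter gene Slc2a5 were below the filter and were not tested.

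Of the monocarboxylate and organic acid carriers, 3 were tested. Slc16a1, for the lactate and ketone body carrier MCT1, was at 10.27, 10.15 and 10.19 in normal and 10.42, 10.45 and 10.41 in STZ vehicle pools. The STZ vehicle pools were all above the normal pools, and the difference was 0.22 (SE 0.10, adjusted p = 0.567). Slc16a6, of the same family, was at 8.59, 8.62 and 8.50 against 8.38, 8.29 and 8.10, also with no overlap but lower in STZ vehicle pools. It had -0.31 (SE 0.139, adjusted p = 0.554), with -0.18 on its second probe set. Slc16a6 overlaps the gene Arsg in the GRCr8 gene table.

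**Figure D2:**
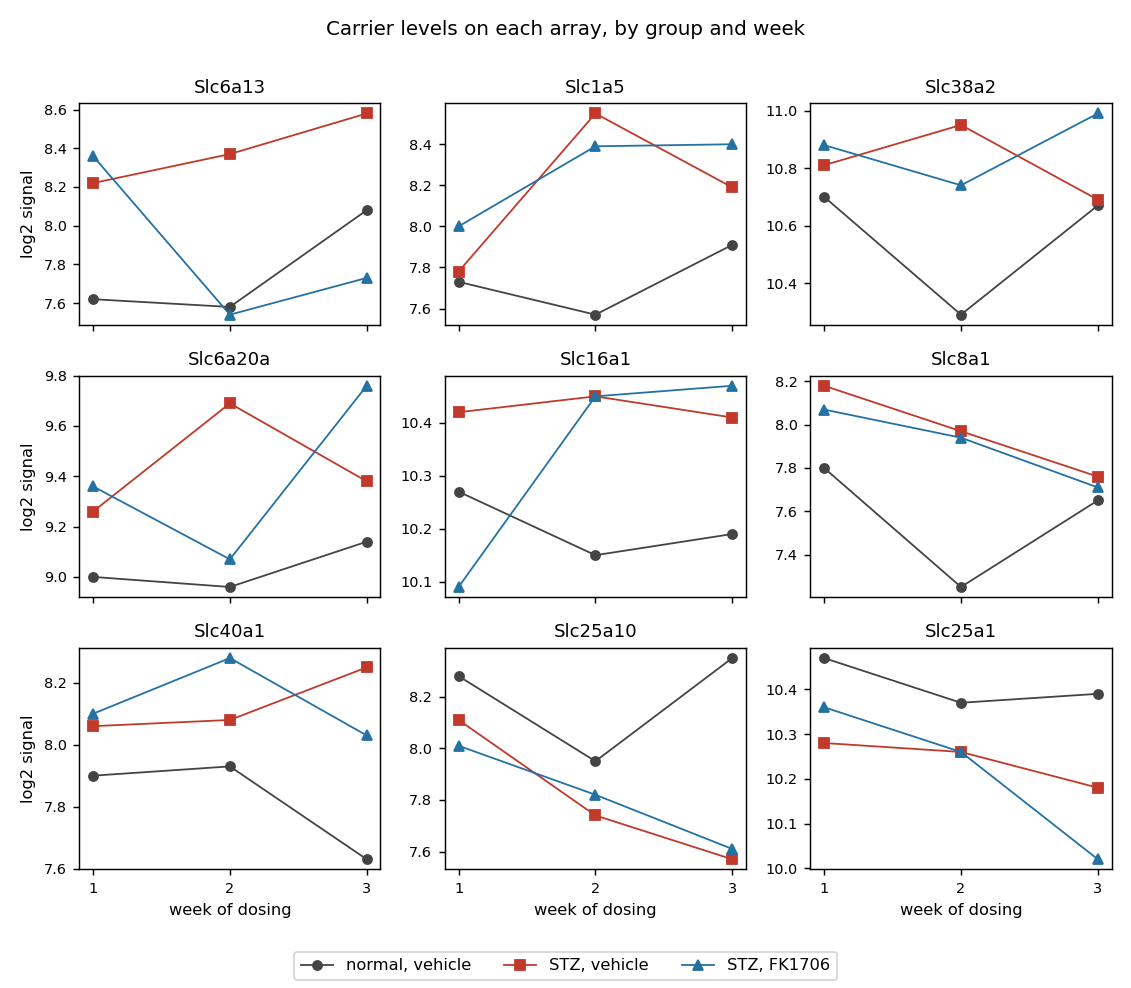
Log2 signal of 9 carriers on each array by week of dosing (x axis) and group (colour and marker), with 1 pool of 5 rats per point. Slc6a13, Slc6a20a, Slc16a1 and Slc40a1 show every STZ vehicle pool above every normal pool, and Slc25a1 every STZ vehicle pool below.

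Ion carriers, with 19 for inorganic and 17 for metal ions tested, had medians of 0.01 and 0.06, and 0 passed. Slc8a1, for the sodium-calcium exchanger NCX1, was at 7.80, 7.25 and 7.65 in normal and 8.18, 7.97 and 7.76 in STZ vehicle pools, with a difference of 0.40 (SE 0.152, adjusted p = 0.482). Its second probe set, at a mean signal of 11.2 units, gave 0.21. The week 3 STZ vehicle pool lay below the week 1 normal pool, so the groups overlapped. Slc40a1, for ferroportin, the iron exporter, was at 7.90, 7.93 and 7.63 against 8.06, 8.08 and 8.25, with no overlap. Its difference was 0.31 (SE 0.134, adjusted p = 0.551), and its 2 other probe sets gave 0.19 and -0.06, the second at a mean signal of 32.6 units. The gene overlaps Asnsd1.

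The sodium bicarbonate cotransporter gene Slc4a4 was at 9.98, 9.95 and 9.88 in normal and 9.65, 9.79 and 9.81 in STZ vehicle pools, lower in each of the latter. It had -0.19 (SE 0.091, adjusted p = 0.579), while its second probe set gave 0.02. Slc12a2, for NKCC1, which loads chloride into sensory neurons, had 0.07 (95% interval -0.08 to 0.21), and -0.04 on the deposited scale. Its levels of 10.97, 10.96 and 10.97 in normal and 11, 11.08 and 11.02 in STZ vehicle pools did not overlap, although the difference was small. Slc12a5, for the neuronal chloride extruder KCC2, and the zinc exporter gene Slc30a1 were below the filter.

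Mitochondrial carriers had a median of 0.04 over 22 tested genes, 14 above 0 and 8 below, and 0 passed. Slc25a10, for the dicarboxylate carrier that exchanges malate and succinate for phosphate, was at 8.28, 7.95 and 8.35 in normal and 8.11, 7.74 and 7.57 in STZ vehicle pools. It had -0.38 (SE 0.151, adjusted p = 0.519), with -0.77 in week 3 and -0.19 without that week. Slc25a1, for the citrate carrier that exports citrate for fatty acid synthesis, was at 10.47, 10.37 and 10.39 against 10.28, 10.26 and 10.18, lower in every STZ vehicle pool. It had -0.17 (SE 0.082, adjusted p = 0.579). Slc25a39, for a carrier that brings glutathione into mitochondria, had 0.18 (SE 0.103), and 0.06 without the week 2 normal pool.

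The ADP/ATP carriers, which exchange the energy currency of the cell across the inner mitochondrial membrane, were among the most precisely measured members. Slc25a4 had -0.03 (95% interval -0.14 to 0.09) and Slc25a5 had 0.02 (-0.14 to 0.18). On the deposited scale they had -0.12 and -0.07. The fatty acid carrier Slc25a20, which moves acylcarnitine, had 0.07 (-0.23 to 0.38), and the glutamate carrier Slc25a22 had 0.22 (-0.09 to 0.53), with 0.61 in week 1 alone.

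Among the other members, Slc33a1, for the acetyl-CoA transporter of the endoplasmic reticulum, was at 8.76, 8.80 and 8.41 in normal and 8.85, 9.01 and 9.10 in STZ vehicle pools. Its difference was 0.33 (SE 0.125, adjusted p = 0.482), with 0.69 in week 3 and 0.15 without that week, and the groups did not overlap. The vesicular glutamate transporters, which fill synaptic vesicles of sensory neurons, gave 0.03 for Slc17a6 (95% interval -0.18 to 0.24) and 0.21 for Slc17a7 (-0.14 to 0.56). The taurine transporter gene Slc6a6 had -0.03, the vesicular monoamine transporter gene Slc18a2 0.15 and the fatty acid transporter gene Slc27a1 -0.04, and all 3 intervals included 0.

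Several of these values rest on the week 2 normal pool, which had the lowest level of all 9 pools for Slc1a5, Slc38a2, Slc8a1 and Slc17a7. That pool also had the highest mean level of the skeletal muscle markers, 9.57, where the other 8 pools ranged from 7.64 to 8.82. The part of muscle RNA in these carrier values was not tested. Without that pool, the STZ vehicle against normal differences were 0.23 for Slc1a5, 0.13 for Slc38a2, 0.24 for Slc8a1 and -0.06 for Slc17a7, while Slc6a13 had 0.62 and Slc40a1 0.34. Slc40a1 had 0.16 without week 3. Of the 15 carriers with the largest moderated t by class in this comparison, 13 moved by over 1.5 times when 1 array or week was left out, and 0 changed sign. The same held for 14 of 15 in FK1706 against STZ vehicle and 14 of 15, 1 of them with a change of sign, in FK1706 against normal.

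**Figure D3:**
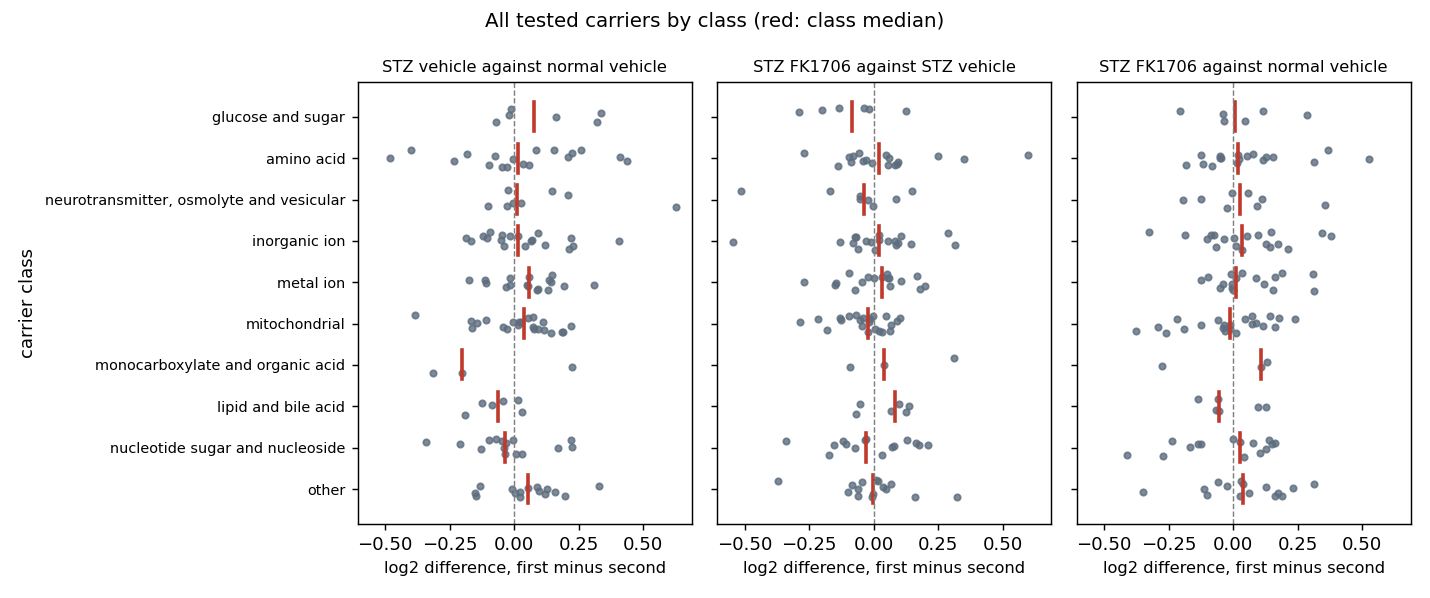
Log2 difference of each of the 129 tested carriers (points, jittered vertically) by class in the comparisons of groups, with the class median as a red line. The class medians lie between -0.20, for the 3 organic acid carriers, and 0.11.

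The comparison of FK1706 with STZ vehicle asks which carriers differ with the drug in diabetic rats. With limma, 0 of 129 carriers and 0% of all genes passed, and the smallest adjusted p of a carrier was 0.999. Without adjustment, at p under 0.05, 2 carriers were higher and 2 lower, or 3.10% beside 3.17% of all genes (1.37% higher and 1.8% lower). Pools of the 2 groups did not overlap for 4 carriers, or 3.10% beside 6.55% of all genes. The median difference was -0.01 against 0.00 for all genes. Of the 129 intervals, 113 lay inside 1.5-fold, or 87.6% beside 92.2% of all genes. This comparison shares the STZ vehicle pools with the one before it.

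Slc6a13 was at 8.36, 7.54 and 7.73 in the FK1706 pools of weeks 1, 2 and 3, so that it was near the STZ vehicle level in week 1 and lower in weeks 2 and 3. The week 2 pool lay below all 3 normal pools. Against STZ vehicle the difference was -0.52 (SE 0.199, adjusted p = 0.999), with 0.14, -0.83 and -0.85 by week. The slope of that difference over weeks was -0.49 per week (SE 0.210, adjusted p = 0.999).

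The other 3 carriers at an unadjusted p under 0.05 were Slc24a3, Slc7a8 and Slc7a1. Slc24a3, for a potassium-dependent sodium-calcium exchanger, was at 8.92, 8.98 and 9.95 in STZ vehicle pools, and the FK1706 pools, at 8.68, 8.79 and 8.74, were all lower. It had -0.55 (SE 0.184, adjusted p = 0.999), with -1.21 in week 3 and -0.22 without that week. The week 3 normal pool was also high, at 9.66, and the second probe set of the gene gave 0.07 for this comparison. Slc7a8, for the neutral amino acid carrier LAT2, was at 8.09, 7.83 and 7.41 in STZ vehicle pools and overlapped with the FK1706 pools, at 8.43, 7.94 and 8.75. It had 0.60 (SE 0.232, adjusted p = 0.999), with 1.34 in week 3 and 0.23 without that week. Against normal pools, at 7.97, 8.45 and 8.36, the STZ vehicle pools had -0.48 (adjusted p = 0.579), the most negative difference of any tested carrier in that comparison.

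Slc7a1, for the arginine and lysine carrier CAT1, had 0.25 (SE 0.110, adjusted p = 0.999), while its other probe sets gave -0.02 and -0.04. Slc7a6, for another cationic amino acid carrier, had -0.27 (SE 0.129), with all FK1706 pools, at 7.91, 7.63 and 7.94, below the STZ vehicle pools, at 8.0, 8.12 and 8.18. Amino acid carriers together had a median of 0.02 over 18 genes. Among glucose and sugar carriers, 5 of 6 were below 0, beside 3467 of all 6995 genes. Their median was -0.09, with -0.15, 0.05 and -0.15 in weeks 1, 2 and 3. Slc2a8 had -0.29, and -0.11 without the week 1 STZ vehicle pool. In week 2 its FK1706 pool, at 8.41, was above its STZ vehicle pool, at 8.21. Slc2a13 had -0.20, and Slc37a4, which takes glucose 6-phosphate into the endoplasmic reticulum, had -0.13. None of these passed, and the second probe set of Slc2a13 had 0.20.

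Inorganic and metal ion carriers had medians of 0.02 and 0.03. Slc12a9, of the cation-chloride cotransporter family, had 0.31 (SE 0.146), with FK1706 pools at 7.99, 8.03 and 8.44 above STZ vehicle pools at 7.84, 7.74 and 7.94. The zinc importer gene Slc39a1 had 0.17 (SE 0.091), higher in each week by 0.21, 0.22 and 0.07. Mitochondrial carriers had a median of -0.02 over 22 genes, with -0.28 for Slc25a44, a carrier of branched-chain amino acids, -0.21 for Slc25a25, which exchanges ATP-magnesium for phosphate, and -0.18 for Slc25a29, a carrier of basic amino acids. Of the remaining members, Slc13a3, for a dicarboxylate carrier, had 0.31 and the urea transporter gene Slc14a2 0.32. The other 4 probe sets of Slc14a2 gave -0.20, 0.09, -0.16 and -0.03, and its value was 0.19 without the week 3 FK1706 pool. The genes of known role were near 0 with narrow intervals in Slc25a4 (-0.13 to 0.10), Slc12a2 (-0.15 to 0.13), Slc3a2 (-0.18 to 0.12) and Slc17a6 (-0.26 to 0.16).

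FK1706 against normal vehicle sets treated diabetic rats against healthy ones and shares its pools with both comparisons above. With limma, 0 of 129 carriers passed beside 0.0143% of all genes, with a smallest carrier adjusted p of 0.422. At an unadjusted p under 0.05, 6 carriers were higher and 3 lower, or 6.98% beside 8.23% of all genes (3.67% higher and 4.56% lower). Groups did not overlap for 10 carriers, 8 higher and 2 lower, or 7.75% beside 11.5% of all genes. Of the 129 intervals, 112 lay inside 1.5-fold, or 86.8% beside 89% of all genes. Slc1a5, at 8.0, 8.39 and 8.40 in FK1706 pools, was above all normal pools, with 0.53 (SE 0.165, adjusted p = 0.422), and 0.32 without the week 2 normal pool. Slc38a2, at 10.88, 10.74 and 10.99, was also above all normal pools and had 0.31 (SE 0.112, adjusted p = 0.521), and 0.18 without that pool.

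Slc40a1, at 8.10, 8.28 and 8.03 in FK1706 pools, was above all normal pools with 0.31 (SE 0.134, adjusted p = 0.589). Slc8a1, at 8.07, 7.94 and 7.71, had 0.34 (SE 0.152), Slc6a20a 0.37 (SE 0.154) and Slc17a7 0.35 (SE 0.158), and these overlapped with normal pools. The second probe sets of Slc6a20a and Slc17a7 gave -0.01 and 0.17, and Slc6a20a had 0.20 without the week 3 FK1706 pool. Without the week 2 normal pool, Slc17a7 had 0.09 and Slc8a1 0.18. Mitochondrial carriers gave the 3 lower values at an unadjusted p under 0.05. Slc25a10, at 8.01, 7.82 and 7.61, had -0.38 (SE 0.151, adjusted p = 0.586), and -0.19 without the week 3 normal pool. Slc25a1, at 10.36, 10.26 and 10.02, was below all normal pools with -0.19 (SE 0.082, adjusted p = 0.589), and -0.10 without week 3. Slc25a29 had -0.29 (SE 0.127, adjusted p = 0.589), and -0.18 without the week 2 normal pool.

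Glucose and sugar carriers had a median of 0.01 in this comparison, with 0.29 for Slc37a1, -0.21 for Slc37a4 and 0.11 for Slc45a4, which was placed in this class by its family. Slc45a4 had -0.17 without week 3. Slc26a1, for a sulfate carrier, had 0.38 (SE 0.188), with FK1706 pools above all normal pools. Slc35b2, for the Golgi carrier of the sulfate donor PAPS, had -0.41 (SE 0.196), with -0.65, 0.13 and -0.71 by week, so the direction differed in week 2. Slc16a1, at 10.09 in the week 1 FK1706 pool and 10.45 and 10.47 afterwards, had 0.13 (95% interval -0.09 to 0.35), and -0.04 on the deposited scale.

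The weeks were compared over all 3 groups, with 3 pools per week. Rats of a later week had been diabetic or kept for longer and were also older, and the labels do not say whether pools of 1 week shared a processing batch, so week, age and batch cannot be told apart. With limma, 0 of 129 carriers passed in week 2 against week 1, week 3 against week 2 or week 3 against week 1, beside 0.0143% of all genes in each. At an unadjusted p under 0.05 there were 3, 8 and 18 carriers, or 2.33%, 6.20% and 14%, beside 5.79%, 10.1% and 12.8% of all genes. Of all genes, 2.86% were higher and 2.93% lower in the first of these comparisons, 5.35% and 4.77% in the second, and 6.43% and 6.39% in the third. The 18 in week 3 against week 1 were 15 higher and 3 lower. On the deposited scale, where most genes were lower in later weeks, 1, 26 and 77 carriers passed, 76 of the last lower. These were 0.775%, 20.2% and 59.7% of the carriers, beside 2.34%, 23.1% and 72.9% of all genes. Weeks 3 and 1 did not overlap for 23 carriers higher and 6 lower, or 22.5% beside 18.9% of all genes (9.54% higher and 9.34% lower).

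Of the 17 metal ion carriers tested, 5 were among the 18 carriers with an unadjusted p under 0.05 in week 3 against week 1, or 29.4% beside 12.8% of all genes, and none passed after adjustment. Of these 5, 3 were higher and 2 lower, while 7 of the 17 were above 0 and 10 below. Among the 5, 3 genes of zinc carrier families had the largest moderated t among ion carriers. Slc30a3, for ZnT3, which loads zinc into synaptic vesicles, was at 8.35, 8.16 and 8.15 in the week 1 normal, STZ vehicle and FK1706 pools and at 8.71, 8.77 and 8.93 in those of week 3. All week 3 pools were above all week 1 and week 2 pools. The difference of week 3 from week 1 was 0.59 (SE 0.126, adjusted p = 0.126), and that of week 3 from week 2 was 0.50. Slc39a1, for ZIP1, which brings zinc into the cell, was at 9.62, 9.33 and 9.53 in week 1 and 9.10, 9.07 and 9.14 in week 3, with no overlap, and had -0.39 (SE 0.091, adjusted p = 0.140). For week 2 against week 1 it had -0.325. Slc30a6, for ZnT6, of the same family as ZnT3, was at 7.90, 7.99 and 7.83 in week 1 and 7.51, 7.46 and 7.01 in week 3, with -0.58 (SE 0.158, adjusted p = 0.186). The family of Slc39a1 did not share its direction. Slc39a11 was at 8.30, 8.29 and 8.22 in week 1 and 8.70, 8.52 and 8.74 in week 3. Slc39a13 was at 9.47, 9.28 and 9.35 in week 1 and 9.49, 9.82 and 9.82 in week 3. Both were higher in week 3 with no overlap, and both were chosen here after their values were seen. On the deposited scale, where the median gene had -0.43, Slc30a3 had 0.19 and Slc39a1 and Slc30a6 had -0.84 and -0.89.

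**Figure D4:**
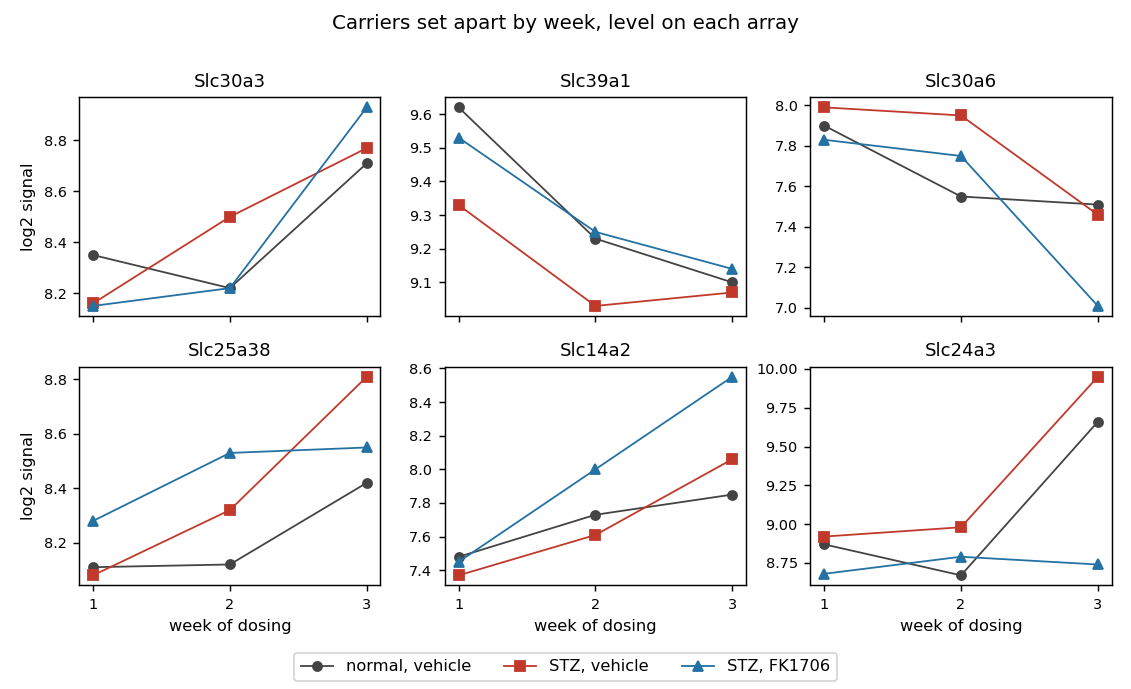
Log2 signal of 6 carriers on each array by week of dosing (x axis) and group (colour and marker). In week 3, Slc30a3, Slc25a38 and Slc14a2 lie above and Slc39a1 and Slc30a6 below all pools of week 1, while Slc24a3 is high in week 3 in the normal and STZ vehicle pools and not in the FK1706 pool.

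Because Slc30a3 and Slc39a1 had the largest moderated t among ion carriers in week 3 against week 1, in opposite directions, their promoter windows are shown, from RefSeq on GRCr8, 250 bases before to 50 after the annotated start. They were searched on both strands for the core of the metal response element, the site of the zinc-sensing factor MTF1, spelled TGCACNC or TGCGCNC. Capitals mark a match.
Slc30a3 (chr6:30997164-30997463, plus strand): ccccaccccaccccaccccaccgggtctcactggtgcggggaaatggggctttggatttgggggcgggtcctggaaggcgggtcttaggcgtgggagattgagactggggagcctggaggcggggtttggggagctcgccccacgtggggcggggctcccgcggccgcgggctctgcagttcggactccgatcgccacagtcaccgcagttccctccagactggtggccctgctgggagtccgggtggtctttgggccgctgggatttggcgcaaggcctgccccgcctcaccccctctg
Slc39a1 (chr2:178000869-178001168, plus strand): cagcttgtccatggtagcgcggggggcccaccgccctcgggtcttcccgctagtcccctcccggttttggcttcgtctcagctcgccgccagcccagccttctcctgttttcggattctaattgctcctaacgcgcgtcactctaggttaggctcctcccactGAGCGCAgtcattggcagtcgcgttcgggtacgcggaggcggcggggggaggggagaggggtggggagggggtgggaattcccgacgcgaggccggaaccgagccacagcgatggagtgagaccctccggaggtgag
The window of Slc39a1 held 1 match, on the minus strand, and that of Slc30a3 held 0. A match was present in 24.2% of all 33469 windows of this length, in 36.9% of 206 windows of 192 member genes and in 12 of 24 windows of metal ion carriers. A match is a description of these letters, not a measured binding site.

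Slc14a2, for the urea transporter of the kidney, had the largest difference of any tested carrier in week 3 against week 1. It was at 7.48, 7.37 and 7.45 in the week 1 normal, STZ vehicle and FK1706 pools and 7.85, 8.06 and 8.55 in week 3. It had 0.72 (SE 0.156, adjusted p = 0.126), but its 4 other probe sets gave 0.56, -0.15, 1.14 and 0.07. Slc25a38, for the mitochondrial glycine carrier used in heme synthesis, was at 8.11, 8.08 and 8.28 in week 1 and 8.42, 8.81 and 8.55 in week 3, with no overlap and 0.44 (SE 0.127, adjusted p = 0.212). On the deposited scale it had 0.05. Further mitochondrial carriers were Slc25a29, with 0.31 (SE 0.127), and Slc25a30, with 0.25 (SE 0.108), both with week 3 above week 1 in all pools. On the deposited scale both were below 0, at -0.07 and -0.14.

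Slc24a3 was the leading inorganic ion carrier of week 3 against week 2, with 0.63 (SE 0.184, adjusted p = 0.322), made of 0.99 in normal, 0.97 in STZ vehicle and -0.06 in FK1706 rats. Its second probe set, at a mean signal of 227 units, gave 0.01. Slc1a5 had 0.33 (SE 0.165) for week 3 against week 1, and Slc27a4, for a fatty acid transporter, had 0.30 (SE 0.113), and on the deposited scale these were -0.02 and -0.17. The dopamine transporter gene Slc6a3 had 0.41 (SE 0.158), while its second probe set, at a mean signal of 22.4 units, gave 0.10. Glucose and sugar carriers had a median of -0.10, with -0.28 for Slc37a1, -0.15 for Slc37a4 and -0.16 for Slc2a13, whose second probe set gave 0.19.

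Whether a group difference grew or shrank over the weeks was tested as a difference of linear slopes, with 3 residual degrees of freedom. With limma, 0 of 129 carriers passed for STZ vehicle minus normal and 0 for FK1706 minus STZ vehicle, beside 0% of all genes in both, and at an unadjusted p under 0.05 there were 8 and 5 carriers, or 6.20% and 3.88%, beside 4% and 3.2% of all genes (2.02% higher and 1.99% lower, and 1.74% higher and 1.46% lower). The largest was Slc13a4, for a sulfate carrier, which was chosen here after its values were seen. It was at 9.05, 8.87 and 8.22 in the normal pools of weeks 1, 2 and 3 and at 8.39, 8.78 and 9.18 in the STZ vehicle pools, so that the order of the groups turned. The slope difference was 0.82 per week (SE 0.154, adjusted p = 0.999). In FK1706 pools, at 8.43, 9.07 and 9.16, it followed an order like that of STZ vehicle pools.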

How the data were processed

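The 9 arrays (1-colour Affymetrix, 15923 probe sets) have 1 deposited intensity for each probe set, not in logs. MAS5 is named as the tool in the submitters' processing notes, with no version given. The deposited values had not been scaled to a common level between arrays. Symbols came from the platform annotation, and all 226 members matched the GRCr8 gene table by Entrez identifier with 0 symbols changed. From the intensities, 57 control probe sets were dropped, 18.7 units (the 10th percentile) were added, log2 was taken and arrays were quantile normalized.

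The filter kept genes whose mean reached the 40th percentile, and these were fitted together in limma 3.58.1 and R 4.3.3 (lmFit, then eBayes with an intensity trend). The model had terms for group and week and 4 residual degrees of freedom, and tests were two-sided. Week is the block, since every group was sampled once in each week. Same-week arrays, less their group means, had correlations between 0.015 and 0.33. The fits were tested on simulated data. Alternatives were the deposited scale, scaling to a common trimmed mean, an offset of 1, no filter or a filter at the 60th percentile, no trend, the mean of all probe sets, no week block, and leaving out each array or week.

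Members and lists were chosen with earlier results of these data known. By rule, per comparison, the named carriers were the 3 with the largest moderated t in each class: glucose, amino acid, ion, mitochondrial and others. For week 2 against week 1 and week 3 against week 2, most of these are not given here. The rule added any 1.5-fold apart in every week and a list of genes of known role. Some genes of that list are not analysed here, and Slc1a1, Slc1a2, Slc2a4, Slc2a5, Slc12a5 and Slc30a1 were below the filter. Slc6a20a was placed with the amino acid carriers after a first look at the values, because the list gave it as 6a20. Of the members, 37 overlap another named gene in the gene table. Besides Slc16a6, Slc37a1 and Slc40a1, these include Slc13a3, Slc25a22, Slc25a25, Slc26a1, Slc27a1 and Slc39a11, for which values are given above.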

Additional observations from a re-analysis of the deposited data

How the results depend on the processing

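The count of carriers that passed was 0 in each of the 22 alternatives of the 3 group comparisons and in the 9 of both slope comparisons, left-out arrays and weeks included for the former (range 0 to 0). For the slopes, leaving out arrays was not run. The fit with no replicate block also gave 0 carriers in all 3 group comparisons. In the week comparisons, the alternatives with left-out arrays gave 0 to 0. The deposited scale, which keeps the lower signal of later weeks, gave 1 carrier for week 2 against week 1, 26 for week 3 against week 2 and 77 for week 3 against week 1. Of these 1, 26 and 76 were lower, and 164, 1615 and 5100 of all genes passed there.

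Carriers at an unadjusted p under 0.05 ranged from 5 to 16 for STZ vehicle against normal and 0 to 10 for FK1706 against STZ vehicle (0 without the week 3 FK1706 pool). For FK1706 against normal they ranged from 3 to 24, with 24 on the deposited scale and at most 13 outside it. In the main fit the shares were 8.53%, 3.10% and 6.98%, beside 8.66%, 3.17% and 8.23% of all genes. The shares of all genes at the alternatives are not given here, so these ranges are not a result about carriers. Over all genes, the count passing after adjustment for STZ vehicle against normal was 6 and ranged from 0 to 9 outside the deposited scale. Of 2749 alternative values of carriers named in the text, 2657 moved by less than the SD of the weekly or group differences, 82 moved by more, and 10 passed on the deposited scale in the week comparisons. In 116, a value that had not passed changed sign. The 33 class medians ranged from -0.20 to 0.11, and from -0.38 to 0.24 over their alternatives. Keeping the control probe sets, or choosing probe set and filter by mean log2 value, gave 0 carriers in all 8 comparisons, and both were chosen after seeing the data. With 3 pools per group, the precision is limited by their number, and differences above 1.5-fold also did not pass. In the group comparisons, 113, 113 and 112 of 129 intervals lay within 1.5-fold, and the others reached beyond it. These were 87.6%, 87.6% and 86.8% of carriers, beside 89.6%, 92.2% and 89% of all genes.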
